A study of Mus musculus with 14 samples.

Results

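The genes described here are 10 genes of the amino acid stress response that is run by the transcription factor Atf4: Cars, Asns, Trib3, Chac1, Psat1, Phgdh, Atf4, Ddit3, Slc7a11 and Sesn2. They were chosen by name, with earlier results of these data known, and were found through the RefSeq transcript printed for each probe. They are read by 17 probes, of 41174 probes that are not controls and 17178 genes with a symbol. 16 of the 17 probes were tested. A tested probe gave a signal well above background on 3 or more of the 14 arrays. The probe that was not tested is one of 3 for Slc7a11. Where a gene has several probes, the brightest one stands for it. Since the choice of genes drew on these same arrays, their differences are given as a description, and no test of them is used as support.

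Lungs came from male C57BL/6N mice 6 months after carbon fibre at 200 µg per mouse was placed in the trachea. VCF mice (4 arrays) received the fibre before recycling, CCF mice (3 arrays) the fibre after carbonization and RCF mice (4 arrays) the fibre after firing. Ctrl mice (3 arrays) received the PBS vehicle alone. The design text describes the samples of a group as biologically independent, and the animals' age is not given in the sources used here. RNA of the whole lung was labelled with Cy3 and read on Agilent arrays of a single colour, so every cell type of the organ contributes to each value. In such bulk RNA fewer cells of a type and less RNA per cell cannot be told apart.

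When a cell lacks an amino acid, uncharged transfer RNA activates the kinase Gcn2, which phosphorylates the translation factor eIF2alpha. General protein synthesis slows, while the Atf4 messenger is translated better. Stress of the endoplasmic reticulum, lack of haem and double-stranded RNA reach the same step through the kinases Perk, Hri and Pkr. Atf4 protein then switches on genes for amino acid synthesis, for uptake and for the charging of transfer RNA. It also switches on Ddit3, Trib3 and Chac1, which are tied to cell death, feedback and glutathione loss. In lung fibroblasts the serine pathway that includes Phgdh and Psat1 supplies glycine for collagen. Much of the control of Atf4 lies in translation, so its messenger level is not a reading of its protein.

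Atf4 binds with C/EBP partners to the amino acid response element. Its core was searched as TGATGNAA on both strands of RefSeq promoters (GRCm38.p6), each a window of 300 bases that spans a gene's start. A promoter entry was found for 9 of the 10 genes, with 10 promoters since Psat1 has 2. The gene without an entry is Cars, whose promoter was not searched. The motif was present in 4 of these 10, those of Asns, Chac1, Slc7a11 and Trib3, and in 3.97% of all 32851 promoters of 300 bases. The 3 stretches shown are those where the match lies upstream of the start, since they show the element in genes whose levels are given below. Capitals mark the motif, and each stretch runs 5′ to 3′ on the gene's own strand.
Asns: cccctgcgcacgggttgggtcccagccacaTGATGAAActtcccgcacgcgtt
Chac1: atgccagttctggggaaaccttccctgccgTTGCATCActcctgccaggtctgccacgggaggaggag
Slc7a11: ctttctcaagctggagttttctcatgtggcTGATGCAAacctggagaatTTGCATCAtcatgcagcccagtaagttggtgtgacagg

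The Asns stretch is chr6:7693210-7693262 on the minus strand, and its motif begins 23 bases before the start in the gene's direction. The Chac1 stretch is chr2:119351019-119351086 on the plus strand, with the motif 193 bases before the start and turned the other way. Slc7a11 has 2 matches in chr3:50443623-50443709 on the minus strand, one in each orientation, 66 and 47 bases before the start. A second motif, TGACNNNGC, the core of the antioxidant response element bound by Nrf2, was present in 3 of the 10 promoters, those of Asns, Phgdh and Sesn2, and in 12.4% of all promoters. A match is a string of letters and does not show that a factor binds there. No match, as for Psat1, says only that these letters are not in this window.

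Levels are given as log2 of the spot's intensity, less the 75th percentile of its array. A level of 0 is therefore the 75th percentile, and a difference of 1 is a doubling. Because probes differ in how brightly they hybridize, a level of one gene is not set against that of another. The 75th percentile lay between 724.7 and 1346 intensity units, 63.07% to 70.5% of probes were well above background on an array, and 0 spots were saturated. The arrays sat on 4 slides with separate scan sessions. On slides 1 and 3 all 4 groups were present, slide 2 had no CCF array and slide 4 no Ctrl array. All 8 markers of lung epithelium and endothelium were above background on all arrays. On 4 arrays the marker lists of neighbouring tissue stood apart, as the mean log2 difference from the Ctrl mean: liver at 3.90 in CCF replicate 2 and 3.68 in RCF replicate 1, thymus at 2.96 in CCF replicate 3, and adipose tissue at 2.67 in VCF replicate 1. These scores are means over 3 liver, 4 thymus and 8 adipose genes. The liver score was also 1.40 in CCF replicate 1 and 1.13 in VCF replicate 4. Values without the 4 arrays, which keep these last 2 lungs, are given for the 10 genes after the cell markers.

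Cars encodes cysteinyl-tRNA synthetase, the enzyme that loads cysteine onto its transfer RNA for protein synthesis. It was lowest in the RCF lungs at both of its bright probes. At the brightest, A_51_P374863, the 3 Ctrl lungs had levels of 1.09, 0.99 and 1.13. The 4 VCF lungs had 0.95, 0.76, 0.83 and 0.67. The 3 CCF lungs had 1.02, 0.86 and 0.90. The 4 RCF lungs had 0.43, 0.55, 0.54 and 0.52. All RCF lungs lay below every other lung, all VCF lungs lay below every Ctrl lung, and CCF overlapped both Ctrl and VCF. Group means were 1.07 ± 0.07 (SD, n = 3) in Ctrl, 0.93 ± 0.08 (SD, n = 3) in CCF, 0.80 ± 0.12 (SD, n = 4) in VCF and 0.51 ± 0.06 (SD, n = 4) in RCF.

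RCF against Ctrl differed by -0.56 (SE 0.10), which is 1.47-fold lower. VCF against Ctrl differed by -0.27 (SE 0.10) and CCF against Ctrl by -0.15 (SE 0.11). Between the fibres, RCF was below VCF by a difference of -0.29 (SE 0.09) and below CCF by one of -0.42 (SE 0.10). CCF against VCF was 0.12 (SE 0.10), within the spread of their arrays. In the order of means Ctrl, CCF, VCF, RCF, then, the neighbouring groups Ctrl and CCF overlapped, CCF and VCF overlapped, and VCF and RCF did not.

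The second bright Cars probe, A_52_P682982, is matched to the same gene, and where each probe lies on the messenger was not examined. The second probe gave -0.59, -0.50 and -0.56 in Ctrl. It gave -0.83, -0.91, -0.86 and -0.90 in VCF. In CCF it gave -0.63, -0.83 and -0.67. In RCF it gave -1.25, -1.18, -1.14 and -1.02. All RCF lungs were again the lowest, and at this probe every fibre lung was below every Ctrl lung. RCF against Ctrl was -0.60 (SE 0.10), VCF against Ctrl -0.32 (SE 0.10) and CCF against Ctrl -0.16 (SE 0.10). CCF against VCF was 0.17 (SE 0.10) at this probe, and the CCF lungs lay above the VCF lungs without overlap, though the nearest pair are both -0.83 when rounded. The levels of the 2 probes had a Pearson correlation of 0.94 over the 14 arrays, which share their RNA.

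The third Cars probe, A_52_P444804, was faint. It lay between -3.05 and -2.14 in Ctrl, -3.19 and -2.31 in VCF, -2.85 and -2.12 in CCF and -3.19 and -2.59 in RCF, and all groups overlapped. Its RCF difference from Ctrl was -0.39 (SE 0.26), and its correlations with the other Cars probes were 0.62 and 0.44.

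The slide did not order the Cars levels. Within slides 1, 2 and 3, with at most 1 array per group on each, RCF minus Ctrl was -0.71, -0.47 and -0.54 at the brightest probe and -0.69, -0.51 and -0.55 at the second. VCF minus Ctrl was -0.30, -0.33 and -0.33 on the same slides. CCF minus Ctrl was -0.24 on slide 1 and -0.07 on slide 3. RCF minus VCF was -0.41, -0.15, -0.21 and -0.39 on slides 1 to 4, and RCF minus CCF was -0.47, -0.48 and -0.31 on slides 1, 3 and 4. CCF minus VCF was 0.06, 0.26 and -0.09 on slides 1, 3 and 4 at the brightest probe, and 0.18, 0.28 and 0.01 at the second, so that its sign differed between slides at the first probe only.

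**Figure D1:**
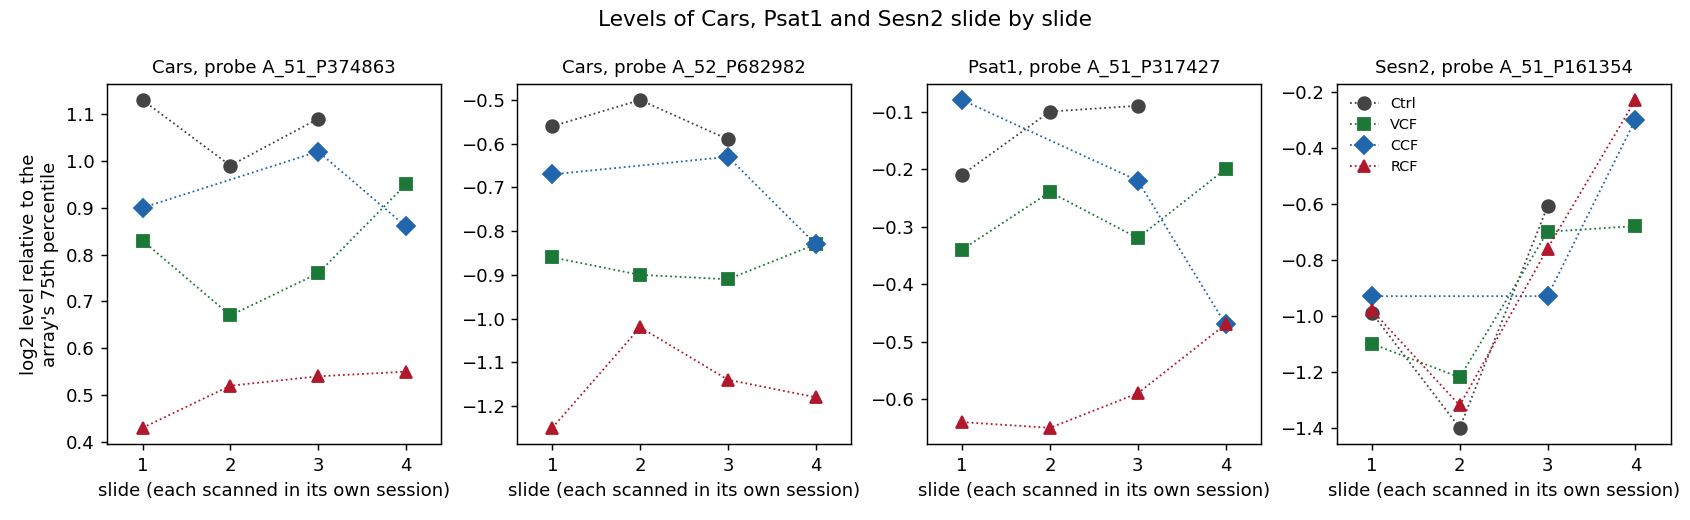
Levels of Cars at its 2 bright probes, Psat1 and Sesn2 (y axis, log2 relative to the array's 75th percentile) on each of the 4 slides (x axis). Each symbol is 1 array, its shape and colour give the group, and dotted lines only join arrays of a group. RCF is the lowest symbol on every slide for Cars, while Sesn2 runs from -1.40 to -1.22 on slide 2 and from -0.68 to -0.23 on slide 4 whatever the group.

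Psat1 is the serine-synthesis enzyme phosphoserine aminotransferase, and Phgdh catalyses the first step of the same pathway. Psat1 had levels of -0.09, -0.10 and -0.21 in Ctrl. It had -0.20, -0.32, -0.34 and -0.24 in VCF. In CCF the levels were -0.22, -0.47 and -0.08. In RCF they were -0.64, -0.47, -0.59 and -0.65. The RCF lungs were below all Ctrl and VCF lungs, and RCF replicate 2 met CCF replicate 2 at -0.47. RCF against Ctrl was -0.45 (SE 0.11), or 1.37-fold lower, against VCF -0.31 (SE 0.10) and against CCF -0.33 (SE 0.11). VCF and CCF differed from Ctrl by -0.14 (SE 0.11) and -0.12 (SE 0.12), and both overlapped it. Within slides 1, 2 and 3, RCF minus Ctrl was -0.43, -0.55 and -0.50.

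Phgdh did not share this pattern. Its 3 Ctrl lungs had 2.47, 2.77 and 2.41, and its 4 RCF lungs had 2.48, 2.40, 2.72 and 2.57. VCF ran from 2.12 to 2.74 and CCF from 2.41 to 2.50, and every group overlapped every other. Against Ctrl, Phgdh differed by -0.14 (SE 0.15) in VCF, -0.11 (SE 0.17) in CCF and -0.01 (SE 0.15) in RCF. The 2 other Phgdh probes gave -0.08 (SE 0.17) and -0.16 (SE 0.15) for RCF against Ctrl.

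Asns, asparagine synthetase, a much-used reporter of the amino acid response, likewise did not separate the groups. Levels were 3.44, 3.73 and 3.66 in Ctrl and 3.52, 3.48, 3.55 and 3.55 in RCF. VCF ran from 3.12 to 3.80 and CCF from 3.12 to 3.57. Against Ctrl, Asns differed by -0.17 (SE 0.17) in VCF, -0.19 (SE 0.18) in CCF and -0.08 (SE 0.17) in RCF. The RCF arrays were close together, with an SD of 0.03, against 0.31 in VCF.

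Atf4 itself had levels of 0.97, 0.15 and 0.58 in Ctrl, the widest spread of the 4 groups with an SD of 0.41. The RCF levels of 0.59, 0.89, 0.97 and 0.90 lay inside this range. VCF ran from 0.49 to 1.16 and CCF from 0.63 to 0.74. Against Ctrl, Atf4 differed by 0.18 (SE 0.20) in VCF, 0.10 (SE 0.21) in CCF and 0.27 (SE 0.20) in RCF. Within slides the RCF difference was 0.01, 0.75 and 0.00 on slides 1, 2 and 3, so that it came from slide 2, which holds the lowest Ctrl lung. The RCF mean of Atf4 lay above the Ctrl mean, opposite in sign to Cars and Psat1.

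Ddit3 encodes CHOP, a transcription factor linked to cell death under prolonged stress. Its levels were 0.35, 0.13 and 0.51 in Ctrl. They were 0.80, 0.51, 0.68 and 0.35 in VCF. In CCF they were 0.76, 0.42 and 0.37, and in RCF 0.00, 0.33, 0.36 and -0.01. The RCF lungs overlapped Ctrl and VCF, and lay just under CCF, whose lowest lung was at 0.37 against the highest RCF lung at 0.36. VCF and CCF were above Ctrl by differences of 0.25 (SE 0.16) and 0.18 (SE 0.17), and RCF differed by -0.17 (SE 0.16). RCF against VCF was -0.42 (SE 0.15) and against CCF -0.35 (SE 0.16). On slides 1 to 4 the first of these was -0.68, -0.36, -0.16 and -0.47.

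Chac1 breaks down glutathione and is a target shared by Atf4 and Ddit3. The Ctrl lungs were close together at 0.42, 0.45 and 0.40. VCF had 0.31, -0.26, 0.27 and 0.46. CCF had 0.39, 0.06 and 0.18, and RCF had 0.10, -0.08, -0.35 and 0.36. CCF and RCF lungs were all below the Ctrl lungs, by as little as the step from 0.40 to 0.39 in CCF. The differences from Ctrl were -0.23 (SE 0.19) in VCF, -0.22 (SE 0.20) in CCF and -0.42 (SE 0.19), or 1.34-fold lower, in RCF. Chac1 varied more among RCF lungs (SD 0.30) than among Ctrl lungs (SD 0.02). Within slides 1, 2 and 3, RCF minus Ctrl was -0.31, -0.09 and -0.77.

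Trib3, a pseudokinase that feeds back on Atf4, had 0.57, 0.96 and 0.50 in Ctrl and 0.43, 0.31, 0.41 and 0.85 in RCF. VCF ran from 0.40 to 0.85 and CCF from 0.56 to 0.73. The highest lung of Ctrl, of VCF and of RCF was in each case the one on slide 2, where Trib3 stood between 0.85 and 0.96, against 0.31 to 0.78 on the other slides. The differences from Ctrl were -0.07 (SE 0.17) in VCF, -0.02 (SE 0.18) in CCF and -0.18 (SE 0.17) in RCF. A second, faint Trib3 probe had a correlation of only 0.13 with it, and its RCF difference from Ctrl was -0.17 (SE 0.26).

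Sesn2 senses leucine and restrains the growth kinase complex mTORC1. Its Ctrl lungs had -0.61, -1.40 and -0.99 and its RCF lungs -0.98, -0.23, -0.76 and -1.32. VCF ran from -1.22 to -0.68 and CCF from -0.93 to -0.30, so that every group spanned much of the range. Against Ctrl, Sesn2 differed by 0.07 (SE 0.27) in VCF, 0.28 (SE 0.29) in CCF and 0.18 (SE 0.27) in RCF. The levels followed the slide: all 3 arrays of slide 2 were the lowest of the 14, and the pair from CCF and RCF on slide 4 were the highest.

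Slc7a11 is the cystine-glutamate exchanger that brings in cystine for glutathione, and its messenger was faint in these lungs. At its brightest probe Ctrl had -2.94, -4.98 and -5.62. The 4 VCF lungs ran from -5.73 to -4.72, the 3 CCF lungs from -5.53 to -5.23 and the 4 RCF lungs from -5.33 to -4.40. Ctrl replicate 1 was the highest lung at all 3 probes, at -2.94, -4.33 and -4.82. The differences from Ctrl were -0.69 (SE 0.49) in VCF, -0.88 (SE 0.53) in CCF and -0.53 (SE 0.49) in RCF. Without Ctrl replicate 1 they were 0.10, -0.09 and 0.26, so that 1 lung set them. The same lung had the highest score of the neutrophil markers, 1.08, against -1.30 to 0.23 in all fibre lungs, and the part of these cells in its Slc7a11 level was not tested.

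**Figure D2:**
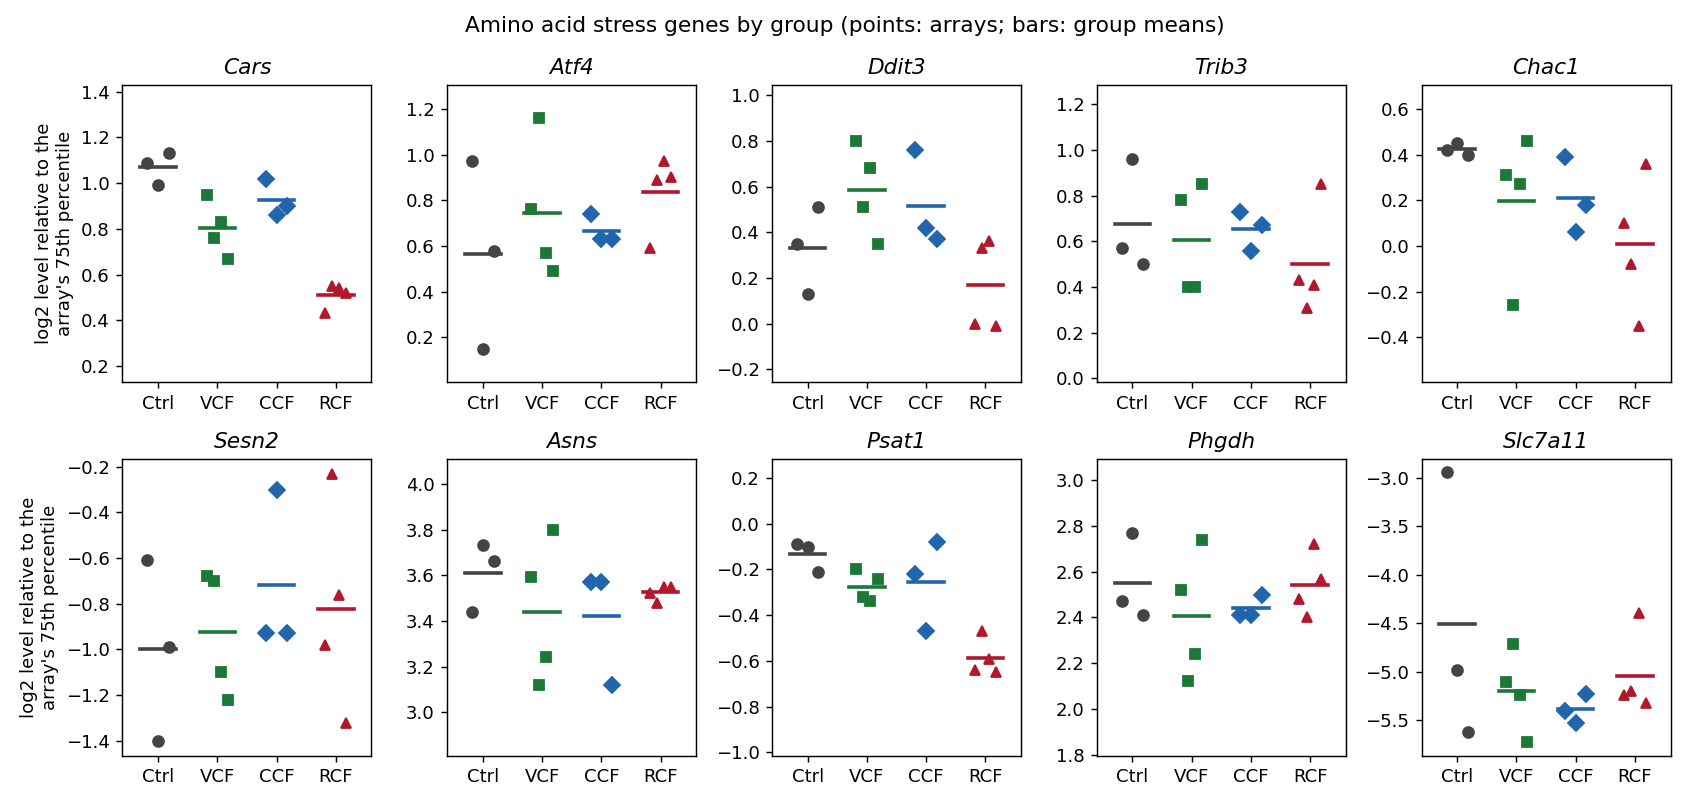
Levels of the 10 genes at their brightest probe (y axis, log2 relative to the array's 75th percentile) in Ctrl, VCF, CCF and RCF (x axis). Points are arrays and bars are group means. The y axes differ in position from gene to gene, and that of Slc7a11 also spans a wider range than the others. The RCF lungs lie apart below all others for Cars (0.43 to 0.55) and below Ctrl and VCF for Psat1 (-0.65 to -0.47), while Asns, Phgdh, Trib3, Atf4 and Sesn2 overlap throughout.

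Across the 10 genes, 0 passed an adjusted p under 0.05 in RCF against Ctrl, where 0% of the 29269 probes did (limma, Benjamini-Hochberg over all probes tested). 3 genes, Cars, Psat1 and Chac1, were lower with an unadjusted p under 0.05, against 2.54% of all probes, and the same 3 were lower with groups that did not overlap, against 3.89%. In VCF against Ctrl 0 of 10 passed, with 0.0102% of probes. Only Cars had an unadjusted p under 0.05 there (2.2% of probes were lower by that rule), and only Cars lay lower with no overlap (2.68% of probes). In CCF against Ctrl 0 of 10 passed, with 0% of probes, 0 had an unadjusted p under 0.05 (6.59% of probes) and only Chac1 lay lower with no overlap (5.02% of probes). These comparisons share the Ctrl lungs. For the average of the fibres against Ctrl 0 passed (0.00342% of probes), and Cars and Psat1 had an unadjusted p under 0.05 (2.35% of probes were lower by that rule). Since the genes were chosen with these results known, nothing is read from the counts against the shares.

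Between the fibres, 0 of 10 genes passed in any of the 3 pairs, and so did 0% of probes in each. In RCF against VCF 3 genes, Cars, Psat1 and Ddit3, were lower with an unadjusted p under 0.05, where 3.75% of probes were, and Cars and Psat1 lay lower with no overlap, where 2.54% of probes did. In RCF against CCF the same 3 genes were lower with an unadjusted p under 0.05, where 3.32% of probes were, and Cars and Ddit3 lay lower with no overlap, where 3.24% did. In CCF against VCF 0 genes had an unadjusted p under 0.05, where 5.8% of probes did.

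By sign, 2 of the 10 genes were higher and 8 lower in RCF against Ctrl, with a median difference of -0.17, where all probes had a median of 0.012 and 47.7% of them were lower. In VCF and in CCF against Ctrl 3 were higher and 7 lower, with medians of -0.14 and -0.12, where all probes had 0.014 and -0.015, with 47.7% and 52.5% of them lower. The 2 genes with a higher mean in RCF, Atf4 and Sesn2, also had higher means in VCF and CCF. Within slides this did not hold throughout. Sesn2 minus Ctrl was 0.01, 0.08 and -0.16 in RCF on slides 1, 2 and 3, and -0.11, 0.18 and -0.09 in VCF. In CCF it was 0.06 and -0.32 on slides 1 and 3. Atf4 minus Ctrl was 0.00, 0.34 and 0.19 in VCF on slides 1, 2 and 3, and 0.06 and -0.23 in CCF on slides 1 and 3. Slide 4, with the 2 highest Sesn2 levels, had no Ctrl array.

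The genes did not vary as 1 block. Of the variance of Cars over the 14 arrays, 88.6% lay between groups and 4.5% between slides. For Psat1 these shares were 77% and 1.9%. Ddit3 had 50.3% between groups and 31.5% between slides, and Chac1 had 32.7% and 29.5%. The other 6 genes had 8.63% to 20.6% between groups and 36.1% to 87.2% between slides, with Sesn2 at both extremes. The median over all probes tested was 22% between groups and 35.1% between slides. The slides do not hold all groups alike, so the 2 shares are not separate parts of a whole, and since the genes were chosen on these arrays the shares are a description.

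**Figure D3:**
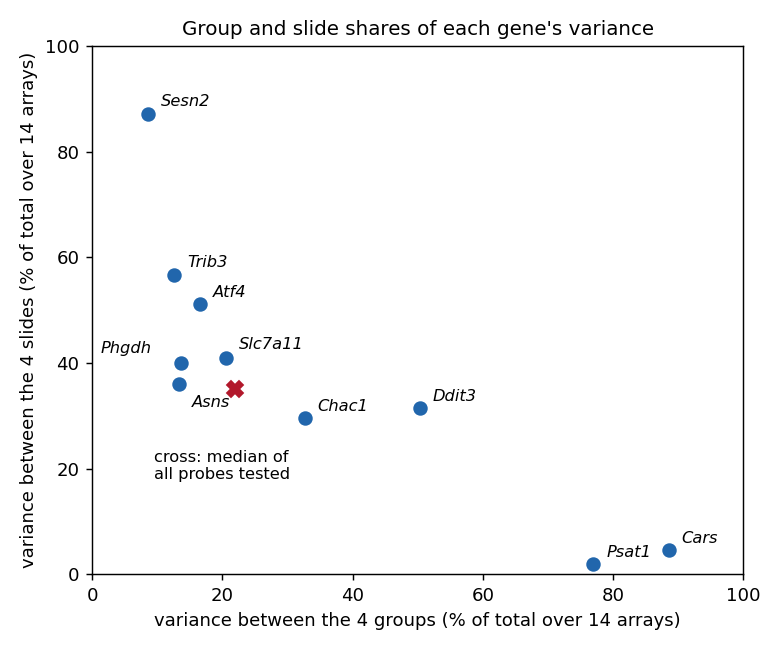
Share of each gene's variance over 14 arrays that lies between the 4 groups (x axis, %) and between the 4 slides (y axis, %), at the brightest probe. Each blue point is a gene and the red cross is the median over all probes tested, at 22% and 35.1%. Cars and Psat1 lie at the lower right, with most of their variance between groups, and Sesn2 at the upper left, with 87.2% between slides.

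Pearson correlations over the 14 arrays were computed for all 45 pairs of the 10 genes, as a description of arrays that share groups and slides. Their median was 0.02, 22 pairs were below 0 and 8 were above 0.5. The highest was that of Cars with Psat1, at 0.84 (Spearman 0.82), but with group means removed it was 0.22. Cars with Ddit3 was 0.56 over all arrays and 0.89 with group means removed. Chac1 with Trib3 (0.71 and 0.67) and Asns with Phgdh (0.70 and 0.67) were alike on both counts. Atf4 had correlations of both signs with the other genes, from -0.58 with Chac1, -0.50 with Trib3 and -0.47 with Asns to 0.15 with Ddit3, 0.46 with Slc7a11 and 0.53 with Sesn2.

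Among 13036 other genes above background on all arrays, the 5 whose levels were most like those of Cars over the 14 arrays were Tef (r = 0.90), Mapk11 (0.89), Raph1 (0.88), Anxa2 (0.87) and Tinagl1 (0.87). Tef, a transcription factor of the circadian output, differed from Ctrl by -0.24 in VCF, -0.19 in CCF and -0.59 in RCF. Anxa2, a membrane-binding annexin, kept a correlation of 0.81 with group means removed, though its differences from Ctrl were small, at -0.09, 0.02 and -0.33. The 5 most opposed were Wnt2 (-0.93), Ankrd44 (-0.93), Pbld1 (-0.92), Angpt2 (-0.92) and Mpzl1 (-0.91). Wnt2, a Wnt ligand made by lung mesenchyme, differed from Ctrl by 0.45, 0.17 and 0.72 in VCF, CCF and RCF, and Angpt2, an endothelial ligand of the Tie2 receptor, by 0.42, 0.14 and 0.79. These genes were picked for their likeness, and their differences carry no test.

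The other genes of the pathway were read in 7 lists. Of these genes, 0 passed an adjusted p under 0.05 in any fibre group against Ctrl. Of all probes tested, 0.0102% passed in VCF and 0% in CCF and RCF. By sign, 47.7% of all probes were lower in VCF and RCF and 52.5% in CCF. Lower with an unadjusted p under 0.05 were 2.2% in VCF and 2.54% in RCF. In CCF 6.59% had such a p in either direction. The lists were chosen with results known, so nothing is read from their counts against these shares. Of 19 cytosolic aminoacyl-tRNA synthetases other than Cars, which load the other amino acids, 5 were higher and 14 lower in RCF, with a median of -0.13. In VCF 1 was higher and 18 lower, with a median of -0.15, and in CCF 6 were higher and 13 lower, with a median of -0.07. Gars, the glycyl enzyme, was the only one with an unadjusted p under 0.05, in RCF, with a difference of -0.38 (SE 0.17). Its Ctrl lungs, at -0.90, -1.45 and -1.15, overlapped the RCF lungs at -1.65, -1.34, -1.51 and -1.68. Of the 19, 3 lay lower in RCF than in Ctrl with no overlap and 0 higher, where 3.89% of probes lay lower in this way. None of the 19 had a difference in RCF below that of Gars, where Cars had -0.56. In VCF and CCF the lowest of the 19 were at -0.49 and -0.91, below Cars at -0.27 and -0.15. Without Ctrl replicate 1 the list's medians were -0.07 in RCF, -0.08 in VCF and -0.04 in CCF, and Gars differed by -0.24 in RCF.

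Of 13 tested enzymes of serine, one-carbon, proline and cysteine metabolism, 4 were higher and 9 lower in RCF, with a median of -0.14. In VCF 3 were higher and 10 lower, with a median of -0.17, and in CCF 5 were higher and 8 lower, with a median of -0.12. Mthfd1l, a mitochondrial folate enzyme, differed from Ctrl by -0.51 (SE 0.19) in RCF and -0.46 (SE 0.19) in VCF, and Aldh18a1, the first enzyme of proline synthesis, by -0.53 (SE 0.19) in VCF. Shmt1, which interconverts serine and glycine, differed by -0.32 (SE 0.12) in VCF. Each of these 4 values had an unadjusted p under 0.05, and none passed after adjustment. Of the 13, 4 lay lower in RCF than in Ctrl with no overlap and 0 higher, where 3.89% of probes lay lower in this way. Without Ctrl replicate 1, Mthfd1l differed by -0.33 in RCF and -0.28 in VCF.

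Of 11 amino acid transporters, 5 were higher and 6 lower in RCF, with a median of 0, and 2 were higher and 9 lower in both VCF and CCF. Slc38a1, a glutamine carrier, was higher in CCF by a difference of 0.67 (SE 0.28), the only transporter with an unadjusted p under 0.05 in a fibre group against Ctrl, and by 0.40 without Ctrl replicate 1. Slc38a2, a transporter that the amino acid response induces, differed by 0.25 (SE 0.17) in RCF. Slc7a3, an arginine carrier, differed by 0.38 (SE 0.23) in RCF and by -0.44 (SE 0.24) in CCF. Without Ctrl replicate 1 its RCF difference was 0.12. Without the 4 arrays on which liver, thymus or adipose markers stood apart, CCF rested on replicate 1 alone. In CCF Slc38a1 then differed from Ctrl by 0.12 and Slc7a3 by 0.

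Of 18 tested partners and further targets of Atf4, 10 were higher and 8 lower in RCF, with a median of 0.09. In VCF 10 were likewise higher and 8 lower, and in CCF 4 were higher and 14 lower. Atf3, a stress-induced factor downstream of Atf4, differed by 0.80 (SE 0.38) in RCF. Its RCF lungs at 1.44, 1.41, 0.70 and 1.60 overlapped the Ctrl lungs at 1.41, -0.66 and 0.73. Eif4ebp1, a brake on cap-dependent translation, differed by -0.40 (SE 0.15) in RCF, and Tnfrsf10b, a death receptor induced by Ddit3, by -0.42 (SE 0.18), both with an unadjusted p under 0.05. Without Ctrl replicate 2 Atf3 differed by 0.22 in RCF, and without Ctrl replicate 1 Tnfrsf10b by -0.22. Of 11 eIF2alpha kinases and their regulators, 5 were higher and 6 lower in RCF, with a median of 0, and 0 had an unadjusted p under 0.05 in any fibre group against Ctrl.

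Of 15 tested endoplasmic reticulum stress genes, 3 were higher and 12 lower in RCF, with a median of -0.15. In VCF 3 were higher and 12 lower, and in CCF 5 were higher and 10 lower. Hspa5, the chaperone BiP, had RCF levels of 5.41, 5.51, 5.46 and 5.40, all below the Ctrl levels of 5.74, 5.92 and 5.71, with a difference of -0.34 (SE 0.15). Without Ctrl replicate 1 the list's median in RCF was -0.03, with 5 genes higher and 10 lower, and 8 of 15 were higher in VCF and 10 of 15 in CCF. Of 7 targets of Nrf2, the factor of the antioxidant response that also drives Slc7a11, 0 were higher and 7 lower in RCF and likewise in VCF, with medians of -0.31 and -0.27. In CCF 3 were higher and 4 lower, among them Srxn1, sulfiredoxin, at -0.54 (SE 0.17). Hmox1, haem oxygenase, differed from Ctrl by -0.57 (SE 0.14) in RCF, -0.48 (SE 0.14) in VCF and -0.36 (SE 0.15) in CCF, each with an unadjusted p under 0.05 and an adjusted p of 0.436, 0.351 and 0.730 (limma). All its fibre lungs, from 2.13 to 2.48, lay below the Ctrl lungs at 3.15, 2.62 and 2.57. 1 Ctrl lung weighed heavily in this list: the mean difference from the Ctrl mean over the 7 targets was 0.42 in Ctrl replicate 1 and -0.22 and -0.20 in the other Ctrl lungs, against -0.33 to -0.26 in VCF and -0.48 to -0.22 in RCF. Without Ctrl replicate 1, 3 targets were higher and 4 lower in RCF, VCF and CCF alike, with medians of -0.10, -0.11 and -0.03. Hmox1 then differed by -0.38, -0.30 and -0.18 in RCF, VCF and CCF, and Srxn1 by -0.36 in CCF.

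**Figure D4:**
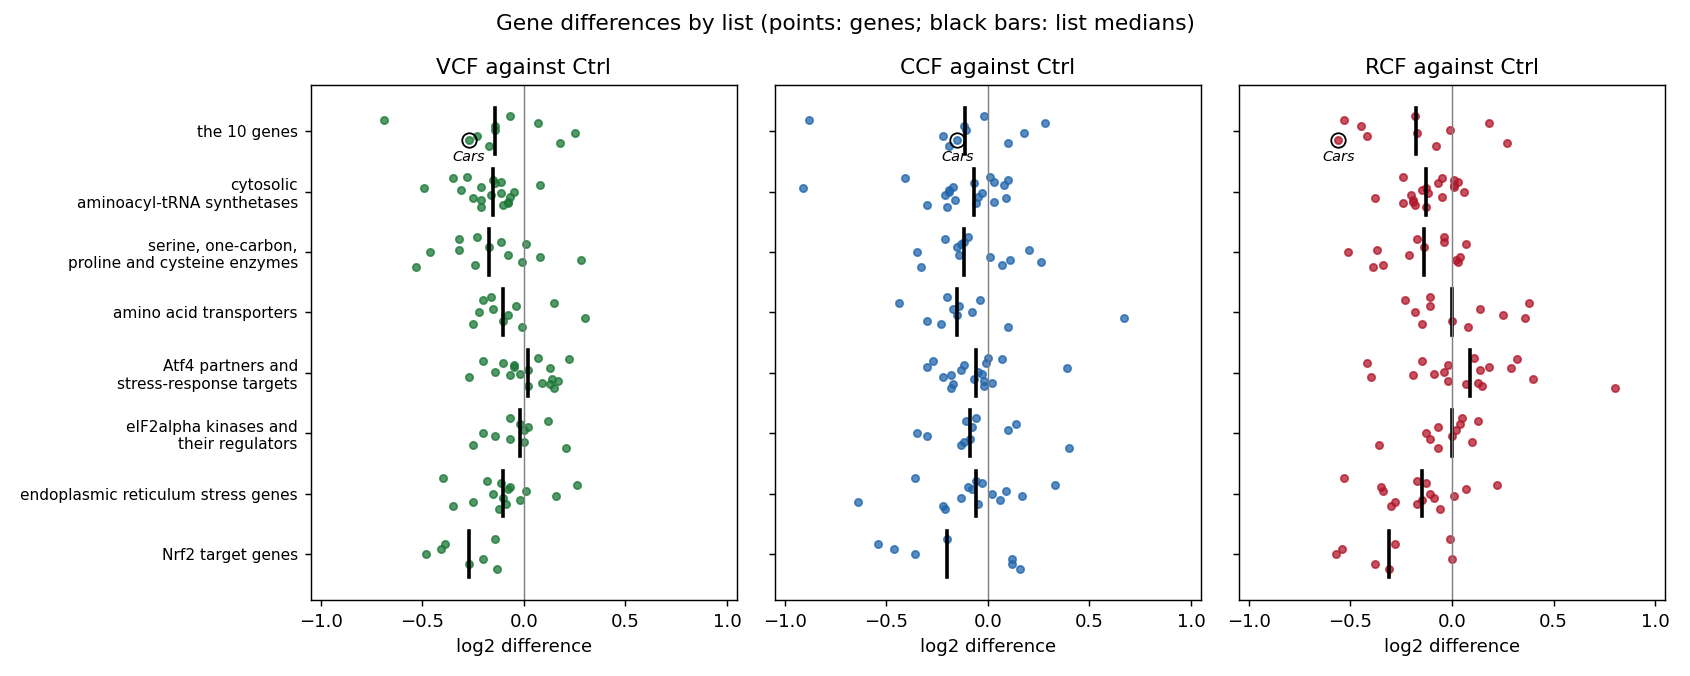
Differences from Ctrl (x axis, log2) of each gene of the 10 and of the 7 pathway lists (y axis), for VCF, CCF and RCF. Points are genes at their brightest probe, black bars are list medians, and a ring marks Cars. Cars is the leftmost of the 10 genes in RCF at -0.56, list medians lie between -0.31 and 0.09 in RCF, and the medians of the 10 genes are -0.14, -0.12 and -0.17.

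Some cell marker scores also differed between the groups. The means of all 9 alveolar macrophage markers were lower in each of the 3 fibre groups, though 0 of 9 passed after adjustment, with array scores (mean log2 difference from the Ctrl mean) of -0.15 to 0.12 in Ctrl, -0.45 to -0.23 in VCF, -0.67 to -0.37 in CCF and -0.35 to -0.20 in RCF. All 9 were above background on all arrays, and 0 of 9 were higher in RCF. The 7 red blood cell markers scored -0.55 to 0.37 in Ctrl and higher in fibre lungs, at 1.15 to 1.83 in VCF, 0.43 to 1.88 in CCF and 0.84 to 1.06 in RCF. The 9 neutrophil markers scored 1.08, -0.67 and -0.41 in Ctrl replicates 1, 2 and 3, so that only replicate 1 stood high. They scored -0.83 to -0.42 in VCF, -0.51 to 0.23 in CCF and -1.30 to -0.48 in RCF. The part of these cell types in the Cars, Psat1 and Hmox1 differences was not tested. The lung epithelium and endothelium score lay between -0.13 and 0.28 on all arrays. Plasma cell markers ran from -0.70 to 0.69 with all groups overlapping, and cardiac muscle markers from -1.97 to 2.20. Of the 6 thymus markers on the array, 3 were above background on all arrays and 1 on none.

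Without the 4 arrays on which liver, thymus or adipose markers stood apart, Cars in RCF against Ctrl was -0.53, Psat1 -0.43 and Chac1 -0.45. Cars in VCF against Ctrl was -0.32. CCF then rested on replicate 1 alone, whose spread is assumed to be that of the other groups, and its values moved most. CCF against Ctrl was -0.05 for Cars, -0.03 for Chac1 and -0.04 for Asns, and 0.43 for Ddit3. CCF against VCF was 0.27 for Cars, 0.24 for Chac1 and 0.25 for Ddit3, which had been -0.07 with all arrays. RCF against CCF was -0.54 for Ddit3 and -0.42 for Chac1, and RCF against VCF was -0.29 for Ddit3. Among the lists, 15 of 19 synthetases and 12 of 15 endoplasmic reticulum stress genes were then higher in CCF than in Ctrl.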

How the data were processed

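Each array has a deposited scanner file with the intensity of every spot. Per the file headers, background was subtracted in Feature Extraction (Agilent, 10.7.3.1), and the array grid names build mm9. The authors' deposited values are also given on a log2 scale, and for 100% of their 27496 probes they equal log2 of the processed intensity minus a constant for the array, within 0.01, with 0 columns of other samples.

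Here log2 of the processed intensity was taken for 43379 spots that are not controls (1639 control spots left out). 1649 spots flagged as outliers, over all arrays, were left out and spots of a probe were averaged. The array's 75th percentile over the 41174 probes was then subtracted. 24844 probes matched 1 symbol through RefSeq gene records (assembly GRCm38.p6). All 4 groups entered 1 limma 3.58.1 fit in R 4.3.3, over 29269 probes, with 10 residual and 2.39 prior degrees of freedom, two-sided, adjusted by Benjamini-Hochberg for each of 7 comparisons. The data.table package (1.17.8) read the files, and matplotlib 3.10.9 (Python 3.11.15) made the plots. The fit was tested on simulated data without a slide effect, with planted differences of a doubling or more. That simulation did not examine differences as small as most of those described here.

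The 10 genes and the pathway and marker lists were chosen with earlier results of these data known. Genes of a list were named by a rule: at most the 3 with the smallest p over the 4 groups. The 5 genes most and least correlated with Cars were named likewise. The number of arrays limits the precision. Alternatives were other background corrections, normalizations, filters, blocks, array weights, priors, the deposited table and leaving out arrays.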

Additional observations from a re-analysis of the deposited data

Results flagged for a closer look

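1 of the 20 groups of 4 lungs checked (10 genes, in VCF and in RCF) held a lung far from the other 3. It was RCF replicate 3 for Slc7a11, at a log2 level of -4.40, where the nearest RCF lung was at -5.20. The gap was 0.868 of the range of the group, above Dixon's critical value for 4 samples. Chance alone marks about 1 in 20 groups in this way.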

How the results depend on the processing

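None of the 10 genes passed an adjusted p under 0.05 in any of the 7 comparisons under the alternatives run, and over all probes the number called ran from 0 to 16 in VCF against Ctrl, 0 to 10 in RCF against Ctrl and 0 to 12 for all fibres against Ctrl. No Cars difference changed sign in 188 values. Over all alternatives Cars in RCF against Ctrl ran from -0.60 to -0.49, in VCF from -0.35 to -0.22 and in CCF from -0.19 to -0.05. Leaving out 1 array at a time gave -0.60 to -0.53, -0.32 to -0.22 and -0.19 to -0.11. With normexp background correction Cars in RCF against VCF was -0.14. Without the 4 arrays on which liver, thymus or adipose markers stood apart, Cars was -0.05 in CCF against Ctrl and 0.27 in CCF against VCF. There 1 CCF array is left and is assumed to vary like the other groups. The cause was not tested. Normexp also moved the median of all probes to -0.225 in CCF against Ctrl, -0.271 in CCF against VCF and 0.22 in RCF against CCF. It gave -0.32 for Psat1 in RCF against Ctrl, and over all alternatives Chac1 there ran from -0.54 to -0.30. Of 1692 values of the other 9 genes, 77 changed sign and 12 moved by more than the spread between replicates. With the slide as a block Cars was -0.29, -0.19 and -0.58 in VCF, CCF and RCF against Ctrl. Same-numbered lungs did not deviate together (19 pairs, correlation -0.37 to 0.35), and the numbers are no pairing. Lungs of different groups on the same slide had correlations of -0.02 to 0.43 (18 pairs, median 0.12). Pairs that shared neither slide nor number had a median of -0.06. The main fit and its standard errors do not take the slide into account. With the replicate number as a block 0 of the 10 genes were called in each comparison. Of the 29269 probes, 6 were called in VCF against Ctrl and 0 in each other comparison. Cars was then -0.25, -0.15 and -0.54 in VCF, CCF and RCF against Ctrl. The pathway lists were also recomputed without each array and without the 4 arrays, a choice made after seeing the data. The faint Slc7a11 probes, near background on many arrays, limit what can be read from that gene.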
